A study of Mus musculus with 4 samples.

Results

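The genes described here are 36 genes of the lysosome, the acidic compartment in which cells break down proteins, sugars and lipids, apart from its cathepsins and its proton pump. They comprise 23 hydrolases, 7 membrane proteins, 4 activators or soluble carriers, and Tfeb and Tfe3 of the TFEB family. A gene was included when the RefSeq accession of a microarray probe mapped to it, and all 36 listed genes were found among the 22903 named genes of the arrays. RNA was measured on 4 one-colour arrays of cells grown from mouse bone marrow, with 1 array in each of 4 groups. These were LysM-St18flox osteoclasts, LysM-St18flox macrophages, wild-type osteoclasts and wild-type macrophages. Macrophages were grown from marrow for 4 days in RPMI medium with 10% serum and M-CSF, a cytokine on which macrophages depend, at 25 ng/ml. Osteoclasts are multinucleated bone-resorbing cells, and were made from such macrophages by 3 more days with 25 ng/ml M-CSF and 50 ng/ml RANKL, the cytokine that drives their formation. RANKL and the additional days therefore cannot be told apart. By convention, the name LysM-St18flox stands for loxP sites around St18, a zinc finger transcription factor gene, together with Cre recombinase driven from the lysozyme M locus of myeloid cells. Neither the age, sex or number of the mice nor whether 1 mouse gave both cell types is stated in the labels.

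Lysosomal hydrolases are made in the endoplasmic reticulum, mostly tagged with mannose 6-phosphate, and carried to the lysosome, where they work at acid pH. Membrane proteins such as Lamp1 and Lamp2 line the compartment, and small activator proteins present lipids to the hydrolases. Tfeb and Tfe3 are basic helix-loop-helix factors that, when they enter the nucleus, activate many lysosomal genes through a motif called CLEAR, whose core is CACGTG. Osteoclasts fuse lysosome-related vesicles with the membrane facing bone, which delivers acid and enzymes to the resorption site.

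The core motif CACGTG was found in the RefSeq promoters of 8 genes among the 34 with a promoter in the RefSeq table of assembly GRCm38.p6, which spans 250 bases before to 50 bases after each gene's start. The stretches that carry it are printed because these are the genes with letters of the TFEB-family motif, and their values are set against those of the other genes further on. Capitals mark each CACGTG, and each stretch is given 5′ to 3′ on the gene's strand.
Lamp1, chr8:13159078-13159160, plus strand: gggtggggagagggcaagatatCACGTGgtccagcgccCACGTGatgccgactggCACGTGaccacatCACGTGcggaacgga
Mcoln1, chr8:3500426-3500501, plus strand: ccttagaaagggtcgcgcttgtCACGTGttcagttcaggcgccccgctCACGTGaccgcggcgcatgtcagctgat
Gla, chrX:134601172-134601254, minus strand: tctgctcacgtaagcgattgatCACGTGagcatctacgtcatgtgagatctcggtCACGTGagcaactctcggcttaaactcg
Gaa, chr11:119267801-119267850, plus strand: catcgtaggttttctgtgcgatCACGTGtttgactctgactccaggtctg
Glb1, chr9:114401008-114401057, plus strand: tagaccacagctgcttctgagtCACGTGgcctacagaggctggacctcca
Naglu, chr11:101069999-101070048, plus strand: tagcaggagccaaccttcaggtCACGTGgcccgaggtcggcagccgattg
Arsa, chr15:89477425-89477462, minus strand: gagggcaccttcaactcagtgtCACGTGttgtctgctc
Lgmn, chr12:102439114-102439163, minus strand: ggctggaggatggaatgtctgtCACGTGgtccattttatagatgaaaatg
Lamp1 held 4 copies, Gla and Mcoln1 held 2 each, and the other 5 genes held 1 each. The copy nearest to the start lay 15 bases before it in Lamp1, 16 bases in Arsa and 140 bases in Gaa. CACGTG was present in 23.5% of these 34 lysosomal genes, against 8.09% of all 27025 genes with a promoter. The motif reads the same on both strands. All 8 genes also had the longer TCACGTG, searched on both strands, which overlaps the first motif and was present in 4.29% of all genes. The variant TCATGTG, searched on both strands, was found in Gla, Grn, Ppt1, Scarb2 and Tpp1, which are 14.7% of the 34 genes, against 4.31% of all genes. Asah1 and Npc1 had no entry in the promoter table. A longer form, with G before TCACGTG and AC after it, which is its own reverse complement, was found in none of the 34 genes and in 0.370% of all genes. A match describes letters and was not tested as a binding site.

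Between 59.0% and 63.2% of the probe spots on an array were well above background, and no spot was saturated. The median SD between repeated spots of a probe was 0.031 to 0.042 on the log2 scale, which measures repeatability on 1 array and says nothing of how cultures vary. With 1 array per group there is no test and no error between cultures, so genes were sorted by size, and a difference of at least 2-fold (1 on the log2 scale) is called a change below. Levels are log2 signals relative to the 75th percentile of the array, so that 0 is the signal of that percentile, and levels of different probes were not compared. St18 itself had a level of 1.12 in LysM-St18flox osteoclasts and -1.52 in LysM-St18flox macrophages, against 1.55 in wild-type osteoclasts and 0.29 in wild-type macrophages. A second St18 probe was well above background on 1 array only, that of LysM-St18flox osteoclasts, at -4.60. It read -6.81 in LysM-St18flox macrophages and -5.67 and -7.51 in wild-type osteoclasts and macrophages. In osteoclasts this is the opposite order of genotypes. In macrophages neither reading was well above background, so they give no order. The labels do not place either probe relative to the loxP sites. All 10 listed osteoclast markers were above background on both osteoclast arrays, and their summed signal was 987 and 767 times the 75th percentile in LysM-St18flox and wild-type osteoclasts, against 11.1 and 12.9 in the macrophages of the same genotypes. Taken one by one, 8 of the 10 were at least 2-fold higher in LysM-St18flox than wild-type osteoclasts, with a median difference of 1.20 on the log2 scale, and none was lower by 2-fold. The 10 macrophage markers were above background on all 4 arrays, with sums of 314 and 361 in LysM-St18flox and wild-type osteoclasts and 659 and 689 in the macrophages. Gene by gene, 8 of the 10 were lower by 2-fold in LysM-St18flox osteoclasts than macrophages, with a median difference of -3.04. In wild-type cells 5 were, with a median of -1.64, and none was higher by 2-fold in either genotype. Between genotypes in macrophages, 3 of the 10 (Mertk, Mrc1 and Siglec1) were at least 2-fold higher in LysM-St18flox cells and none was lower by 2-fold. Of 9 osteoclast markers measured there, Dcstamp and Ocstamp were lower by 2-fold in LysM-St18flox macrophages, and none was higher. In osteoclasts, 1 macrophage marker, Lyz2, was lower by 2-fold in LysM-St18flox cells and none was higher. Of 9 neutrophil markers with a probe, 8 or 9 were above background on each array, with sums of 9.86 and 14.3 in LysM-St18flox and wild-type osteoclasts against 40.4 and 33.1 in macrophages. Of 6 markers each of dendritic cells, endothelium, stroma, red cell precursors, basophils with mast cells, NK with T cells, and B cells, between 1 and 5 were above background on an array. The dendritic cell sums were 107 and 148 in LysM-St18flox and wild-type osteoclasts and 102 and 165 in the macrophages. No sum of the other types in this group was above 6.85. The part of these markers in the results below was not tested. In such bulk cultures, fewer cells of a type and less RNA per cell cannot be told apart.

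All 36 lysosomal genes were well above background on all 4 arrays. In LysM-St18flox cells, 11 of the 36 changed between osteoclasts and macrophages, with 2 higher and 9 lower in osteoclasts. That is 30.6% of the genes, against 23.2% of the 15576 genes measured in this comparison (10.9% higher and 12.2% lower). In wild-type cells, 5 of the 36 changed, all lower in osteoclasts, which is 13.9% against 13.0% of 14734 genes (5.70% higher and 7.32% lower). The 5 were Galc, Lgmn, Pla2g15, Ppt1 and Man2b1, and all were also lower in LysM-St18flox osteoclasts. A fall of 2-fold or more in both genotypes was thus seen in 13.9% of the lysosomal genes and in 6.12% of the 13671 genes measured on all arrays, and no lysosomal gene was higher by 2-fold in both, against 3.65% of those genes. Between genotypes, 3 of the 36 genes differed by 2-fold in osteoclasts, with Arsb and Smpd1 higher and Lipa lower in LysM-St18flox cells, in the same arrays in which 8 of 10 osteoclast markers were higher. This is 8.33%, against 7.75% of 14614 genes (3.80% higher and 3.94% lower). In macrophages none of the 36 differed by 2-fold between genotypes, against 6.28% of 15161 genes (3.30% higher and 2.98% lower). These counts use the brightest probe of each gene. Gaa was lower by 2-fold in LysM-St18flox cells on its other probe, at -1.19 in macrophages and -1.01 in osteoclasts. Between cell types, Lamp2 was also lower by 2-fold in wild-type osteoclasts on its other probe, at -1.11, and Lamp1 in LysM-St18flox osteoclasts, at -1.29. Each array serves in 2 of these 4 comparisons, so they are not independent of each other. Over all 4 comparisons 11 genes changed at least once (30.6%, against 26.4% of the genes measured on all arrays) and 25 in none.

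**Figure D1:**
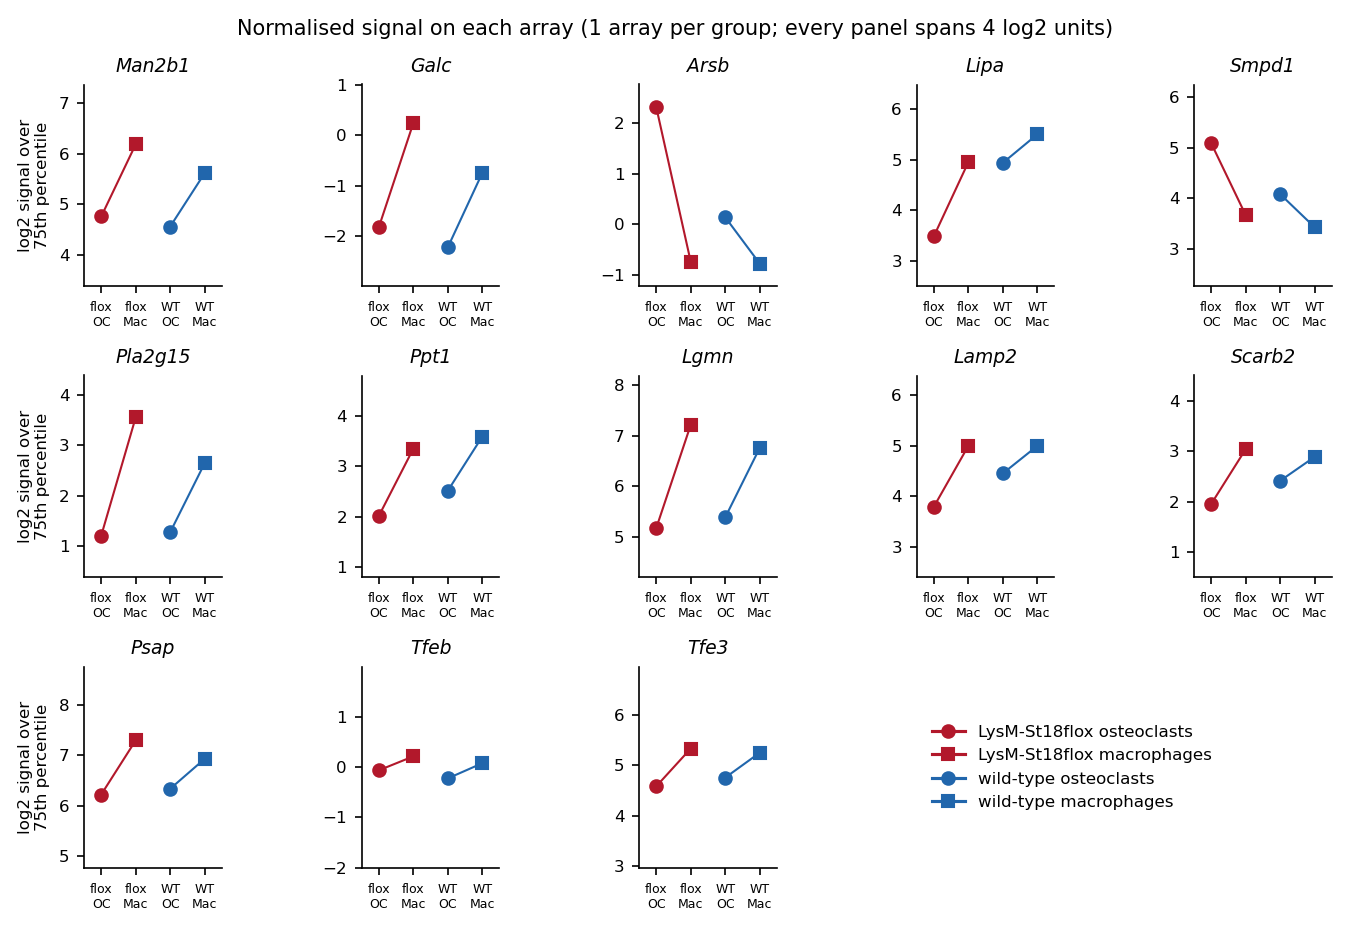
Level (log2 signal over the 75th percentile, y axis) of the 11 lysosomal genes that changed in any comparison, and of Tfeb and Tfe3, on each of the 4 arrays (x axis; flox, LysM-St18flox; WT, wild-type; OC, osteoclasts; Mac, macrophages), with 1 array per group and a line joining the cell types of a genotype. Arsb stands at 2.32 in LysM-St18flox osteoclasts and between -0.78 and 0.14 on the other arrays, and Galc, Pla2g15, Ppt1, Lgmn and Man2b1 are lower in osteoclasts of both genotypes.

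The glycosidases, which remove sugars from glycoproteins, glycolipids and glycosaminoglycans, held 12 of the hydrolases. Galc and Man2b1 were lower in osteoclasts of both genotypes. The other 10 stayed within 2-fold in every comparison as normalised here and on the brightest probe. Fuca1 and Glb1 passed it under another normalization, and Gaa passed it between genotypes on its dimmer probe. Galc, which removes galactose from the myelin-type lipid galactosylceramide, had levels of -1.83 in LysM-St18flox osteoclasts, 0.23 in LysM-St18flox macrophages, -2.23 in wild-type osteoclasts and -0.75 in wild-type macrophages. Both osteoclast arrays were below both macrophage arrays. Galc was 4.18-fold lower in osteoclasts than in macrophages of LysM-St18flox mice and 2.78-fold lower in those of wild-type mice. In macrophages it was 1.98-fold higher in LysM-St18flox cells than in wild-type cells, just under the 2-fold limit.

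Man2b1, the lysosomal alpha-mannosidase that trims glycoproteins, had levels of 4.75 and 6.19 in LysM-St18flox osteoclasts and macrophages and of 4.55 and 5.61 in wild-type osteoclasts and macrophages. Again both osteoclast arrays were the lower ones. The difference was 2.70-fold in LysM-St18flox cells and 2.08-fold in wild-type cells. Fuca1, the alpha-fucosidase, had osteoclast minus macrophage differences of -0.77 and -0.64 in LysM-St18flox and wild-type cells, which missed 2-fold in both, but the first was -1.03 with quantile normalization and -1.02 in the authors' deposited table. Glb1, the acid beta-galactosidase, had a level of 4.52 in LysM-St18flox osteoclasts against 3.59 in wild-type osteoclasts, a 1.90-fold difference just under the limit that became 1.18 on the log2 scale with each array centred on its median. Hexa, the alpha subunit of beta-hexosaminidase that degrades gangliosides, and Manba, the beta-mannosidase, were 1.62-fold and 1.61-fold higher in osteoclasts of LysM-St18flox than of wild-type mice. Idua, which removes iduronic acid from heparan and dermatan sulfate, was 1.61-fold lower there. None of these 3 passed the limit.

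Gaa, which degrades glycogen, had osteoclast minus macrophage differences of 0.25 in LysM-St18flox cells and 0.19 in wild-type cells. Naglu, an enzyme of heparan sulfate breakdown, had differences of -0.05 and -0.28 in the same order of genotypes. Gusb, the beta-glucuronidase, had 0.08 and -0.26, and Neu1, the sialidase of the lysosome, had -0.17 and -0.39. All 4 were thus small against the 2-fold limit. Gla, the alpha-galactosidase that clears globotriaosylceramide, differed by 0.03 and -0.09 between cell types. It was 1.37-fold lower in osteoclasts of LysM-St18flox than of wild-type mice and 1.49-fold lower in macrophages of LysM-St18flox than of wild-type mice, within the limit in both cell types.

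Of the 3 sulfatases, which remove sulfate groups, Arsb changed and Arsa and Ids did not reach 2-fold. Arsb removes sulfate from dermatan and chondroitin sulfate. Its level was 2.32 in LysM-St18flox osteoclasts, -0.75 in LysM-St18flox macrophages, 0.14 in wild-type osteoclasts and -0.78 in wild-type macrophages. The LysM-St18flox osteoclast array was the high one, wild-type osteoclasts came next, and the macrophage arrays of both genotypes were almost level. Arsb was 8.37-fold higher in osteoclasts than in macrophages of LysM-St18flox mice, and 1.89-fold higher in those of wild-type mice, which missed the limit. In osteoclasts it was 4.53-fold higher in LysM-St18flox cells than in wild-type cells, while in macrophages the genotypes differed 1.02-fold. The response in LysM-St18flox cells therefore exceeded that in wild-type cells by 2.15 on the log2 scale. As normalised here and on the brightest probe, Arsb was the only one of the 36 genes in which these responses differed by 2-fold or more, against 7.90% of the 13671 genes measured on all arrays. Pla2g15 at -0.98 and Lipa at -0.90 were just under the limit. With quantile normalization the Pla2g15 responses were -2.42 in LysM-St18flox and -1.37 in wild-type cells, which is past it.

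Arsb had a second probe, on which its levels were -0.06 in LysM-St18flox osteoclasts, -2.75 in LysM-St18flox macrophages, -1.60 in wild-type osteoclasts and -2.60 in wild-type macrophages. The order of the osteoclast arrays was the same on both probes. The osteoclast minus macrophage difference on the second probe was 2.68 in LysM-St18flox cells and just under the 2-fold limit in wild-type cells, and LysM-St18flox minus wild-type was 1.54 in osteoclasts and -0.14 in macrophages. Arsa, which removes sulfate from the lipid sulfatide, had the smallest range over the 4 arrays of all 36 genes, at 0.17. Ids, the iduronate sulfatase, was 1.44-fold lower in osteoclasts of LysM-St18flox than of wild-type mice and within the limit everywhere.

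Of the 5 enzymes that act on lipids or acyl chains, 4 changed and Asah1 did not. Pla2g15, a lysosomal phospholipase, had levels of 1.21 and 3.55 in LysM-St18flox osteoclasts and macrophages and 1.28 and 2.65 in wild-type osteoclasts and macrophages. The osteoclast arrays were close together and the macrophage arrays were higher, that of LysM-St18flox mice more so. Pla2g15 was 5.08-fold lower in osteoclasts of LysM-St18flox mice and 2.58-fold lower in those of wild-type mice. In macrophages the genotypes differed by 0.91, within 2-fold.

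Ppt1, which removes palmitate from proteins, had levels of 2.01 and 3.35 in LysM-St18flox osteoclasts and macrophages and 2.51 and 3.59 in wild-type osteoclasts and macrophages. It was 2.52-fold and 2.10-fold lower in osteoclasts of LysM-St18flox and wild-type mice. Ppt1 had 3 probes, and on all of them the difference was past 2-fold in both genotypes, between -1.57 and -1.33 in LysM-St18flox cells and between -1.39 and -1.07 in wild-type cells.

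Lipa, the acid lipase that frees cholesterol and fatty acids from lipoprotein lipids, had a level of 3.48 in LysM-St18flox osteoclasts, 4.95 in LysM-St18flox macrophages, 4.94 in wild-type osteoclasts and 5.51 in wild-type macrophages. The LysM-St18flox osteoclast array was lower than the other 3. Lipa was 2.77-fold lower in osteoclasts than in macrophages of LysM-St18flox mice and 1.48-fold lower in those of wild-type mice. Between genotypes it was 2.75-fold lower in LysM-St18flox osteoclasts and 1.47-fold lower in LysM-St18flox macrophages than in their wild-type counterparts.

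Smpd1, the acid sphingomyelinase that makes ceramide, had a level of 5.09 in LysM-St18flox osteoclasts, 3.66 in LysM-St18flox macrophages, 4.08 in wild-type osteoclasts and 3.42 in wild-type macrophages. Here LysM-St18flox osteoclasts were the highest array, and both osteoclast arrays were above both macrophage arrays. Smpd1 was 2.68-fold higher in osteoclasts than in macrophages of LysM-St18flox mice and 1.58-fold higher in those of wild-type mice. LysM-St18flox osteoclasts exceeded wild-type osteoclasts by 2.01-fold, at the limit, and the difference was 0.97 on the log2 scale, under the limit, with quantile normalization. Asah1, the acid ceramidase that breaks ceramide down, had osteoclast minus macrophage differences of -0.56 and -0.31 in LysM-St18flox and wild-type cells and differed by -0.08 between genotypes in osteoclasts.

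Among the proteases and the phosphatase, Lgmn changed, and Tpp1 and Acp2 did not reach 2-fold. Lgmn, legumain, cleaves proteins after asparagine and processes cathepsins. It had levels of 5.17 and 7.22 in LysM-St18flox osteoclasts and macrophages and 5.38 and 6.76 in wild-type osteoclasts and macrophages, so that both osteoclast arrays lay below both macrophage arrays. It was 4.13-fold lower in osteoclasts of LysM-St18flox mice and 2.60-fold lower in those of wild-type mice. Tpp1, a tripeptidyl peptidase, had differences of -0.20 and -0.28 in the same order of genotypes, and Acp2, the lysosomal acid phosphatase, had -0.69 and -0.34.

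**Figure D2:**
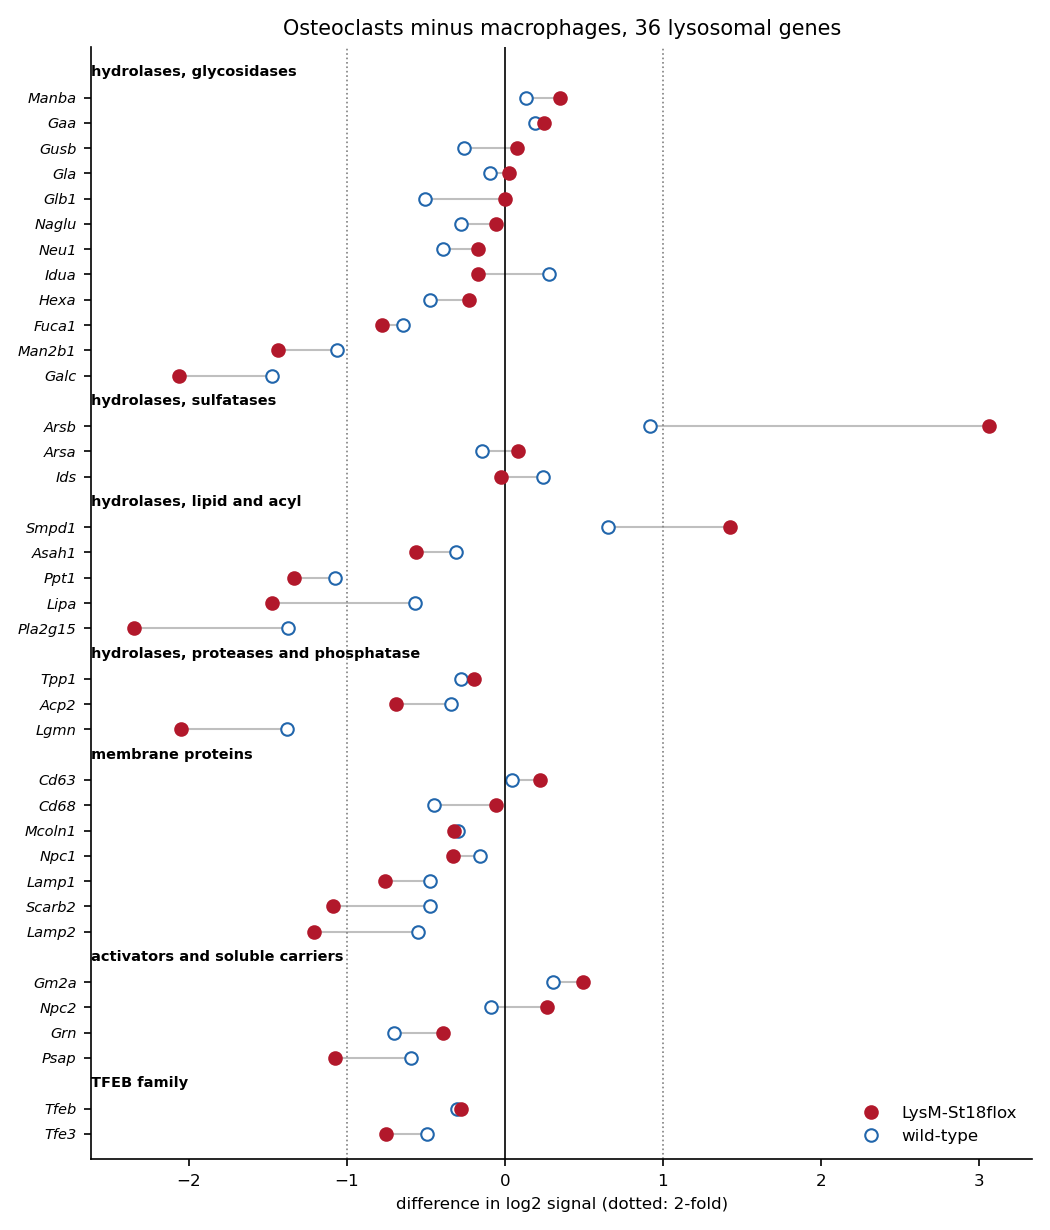
Osteoclast minus macrophage difference in log2 signal (x axis) of each of the 36 lysosomal genes (rows, grouped by role), filled points for LysM-St18flox cells and open points for wild-type cells, with 1 array per group and dotted lines at 2-fold. Pla2g15, Galc and Lgmn lie lowest at -2.34, -2.06 and -2.05 in LysM-St18flox cells, and Arsb lies highest at 3.07.

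Of the 7 membrane proteins, Lamp2 and Scarb2 changed, both between the cell types of LysM-St18flox mice, and the other 5 stayed within 2-fold in every comparison, Lamp1 only as normalised here and on its brighter probe. Lamp2, a glycoprotein that lines the lysosome and takes part in fusion with autophagosomes, had levels of 3.79 and 4.99 in LysM-St18flox osteoclasts and macrophages and 4.45 and 4.99 in wild-type osteoclasts and macrophages. The macrophage arrays were level, and the LysM-St18flox osteoclast array was the lowest. Lamp2 was 2.31-fold lower in osteoclasts than in macrophages of LysM-St18flox mice and 1.46-fold lower in those of wild-type mice. On its second probe, which carries the accession of another Lamp2 transcript, the differences were -1.90 in LysM-St18flox cells and -1.11 in wild-type cells, so that both passed 2-fold there.

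Scarb2, the receptor that carries beta-glucocerebrosidase to the lysosome, had levels of 1.96 and 3.04 in LysM-St18flox osteoclasts and macrophages and 2.41 and 2.89 in wild-type osteoclasts and macrophages. It was 2.12-fold lower in osteoclasts of LysM-St18flox mice, and 1.39-fold lower in those of wild-type mice. With each array centred on its median in place of the 75th percentile, the first of these was -0.92 on the log2 scale, under the limit. Lamp1, the other major glycoprotein of the lysosomal membrane, had differences of -0.76 and -0.47 in LysM-St18flox and wild-type cells on its brighter probe and -1.29 and -0.63 on the other. In LysM-St18flox cells the Lamp1 difference passed 2-fold with quantile normalization (-1.10), in the authors' deposited table (-1.10) and with the median over its probes (-1.02).

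Cd68, a heavily glycosylated protein of macrophage lysosomes, had differences of -0.06 and -0.45 in LysM-St18flox and wild-type cells. The tetraspanin Cd63, found in lysosomes and multivesicular bodies, had 0.22 and 0.05. The cholesterol exporter Npc1 had -0.33 and -0.16, and Mcoln1, the calcium channel of the lysosome, had -0.32 and -0.29. In osteoclasts, LysM-St18flox minus wild-type was between -0.66 for Lamp2 and 0.49 for Cd68 over the 7 membrane proteins.

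Among the 4 activators and carriers, Psap changed between the cell types of LysM-St18flox mice. Psap, the precursor of the saposins that present sphingolipids to hydrolases, had levels of 6.22 and 7.30 in LysM-St18flox osteoclasts and macrophages and 6.34 and 6.93 in wild-type osteoclasts and macrophages. It was 2.11-fold lower in osteoclasts of LysM-St18flox mice and 1.51-fold lower in those of wild-type mice, and the first of these was -0.90 on the log2 scale, under the limit, with centring on the median. Gm2a, which presents the ganglioside to beta-hexosaminidase, was 1.72-fold higher in osteoclasts of LysM-St18flox than of wild-type mice and 1.51-fold higher in macrophages of LysM-St18flox than of wild-type mice. Npc2, which hands cholesterol to Npc1, had osteoclast minus macrophage differences of 0.27 and -0.09, and Grn, the progranulin precursor, had -0.39 and -0.70 in LysM-St18flox and wild-type cells. The 3 genes were within 2-fold in every comparison, except that Gm2a was 1.04 higher on the log2 scale in LysM-St18flox than wild-type osteoclasts with centring on the median.

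Tfeb had levels of -0.07 in LysM-St18flox osteoclasts, 0.21 in LysM-St18flox macrophages, -0.23 in wild-type osteoclasts and 0.07 in wild-type macrophages. The 4 arrays lay within 0.44 of each other, and no comparison reached 2-fold. Tfeb had 4 probes, and they did not give 1 sign in any of the 4 comparisons. Tfe3 had levels of 4.58 in LysM-St18flox osteoclasts, 5.33 in LysM-St18flox macrophages, 4.76 in wild-type osteoclasts and 5.25 in wild-type macrophages. Both osteoclast arrays were below both macrophage arrays, by 1.68-fold in LysM-St18flox mice and 1.41-fold in wild-type mice, under the limit. A second Tfe3 probe was well above background on 3 arrays only and gave -1.61 and -0.09 in the same order of genotypes. The array on which it was not was that of LysM-St18flox osteoclasts, where it read -7.05, under the lowest level above background there, -5.50. With the median over both probes, Tfe3 passed 2-fold in LysM-St18flox osteoclasts, at -1.18 against LysM-St18flox macrophages and -1.29 against wild-type osteoclasts. Both values rest on that background reading, so their size is not measured.

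**Figure D3:**
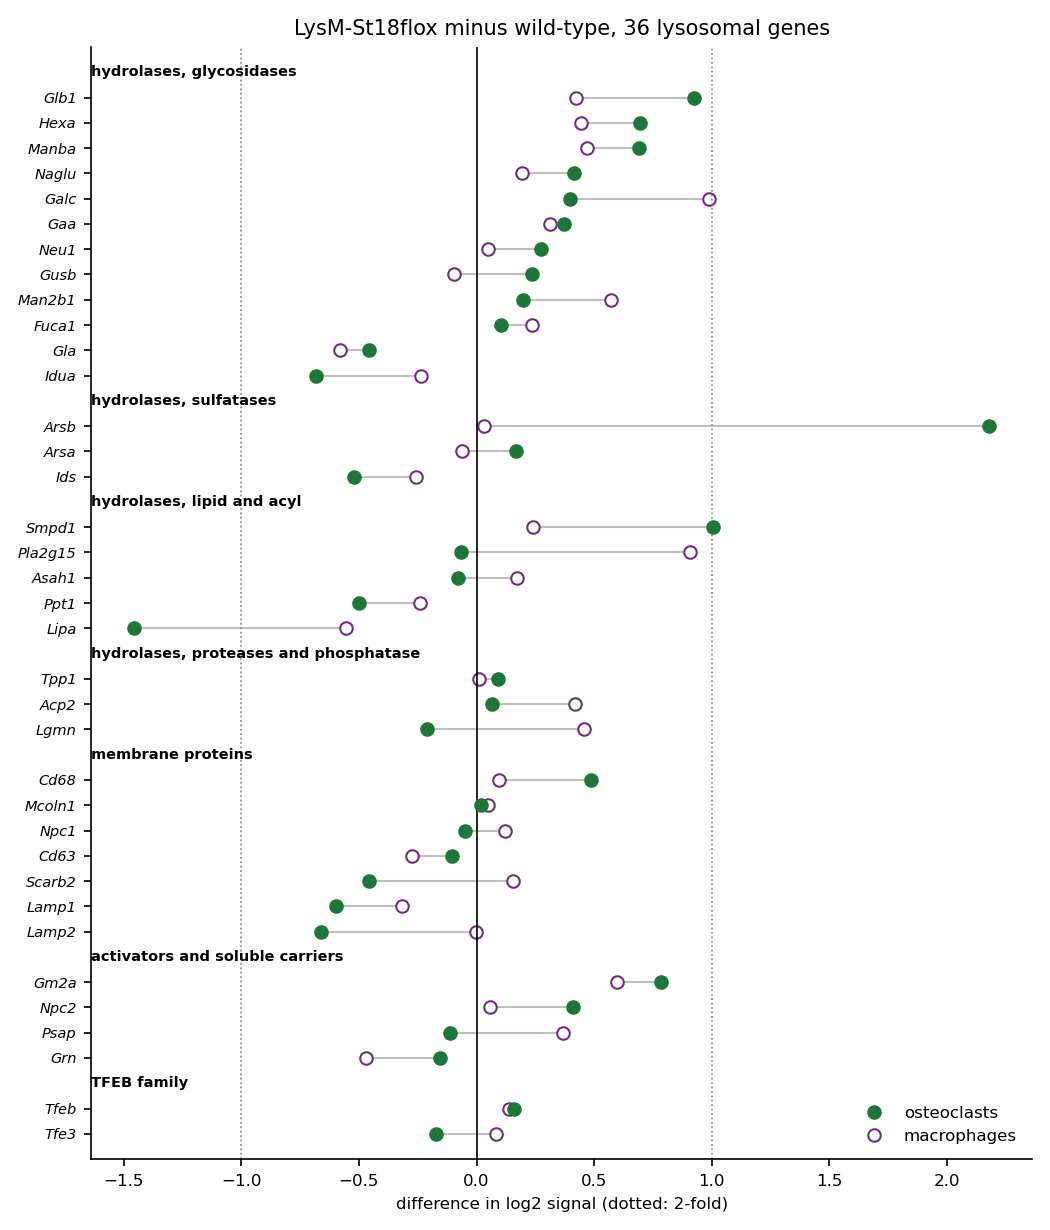
LysM-St18flox minus wild-type difference in log2 signal (x axis) of each of the 36 lysosomal genes (rows, grouped by role), filled points for osteoclasts and open points for macrophages, with 1 array per group and dotted lines at 2-fold. Each gene is shown on its brightest probe. Arsb at 2.18, Smpd1 at 1.01 and Lipa at -1.46 pass 2-fold in osteoclasts, and no gene passes it in macrophages, where Galc at 0.99 is nearest.

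Hydrolases and membrane proteins were then compared as classes. In LysM-St18flox cells the median osteoclast minus macrophage difference was -0.17 over the 23 hydrolases and -0.33 over the 7 membrane proteins, 0.16 apart. In wild-type cells it was -0.31 over the hydrolases and -0.45 over the membrane proteins, 0.14 apart. The median of all named genes was -0.02 and 0.00 in these comparisons. Both classes thus had medians below 0 in both genotypes, except that the hydrolase median in LysM-St18flox cells was 0.00 with centring on the median. The hydrolases spread wider than the membrane proteins in LysM-St18flox cells, between -2.34 and 3.07 against -1.21 and 0.22, and the membrane proteins all lay within the range of the hydrolases. Of the hydrolases, 2 were higher and 6 were lower by 2-fold in LysM-St18flox osteoclasts, and of the 7 membrane proteins none was higher and 2 were lower, against 10.9% of all measured genes higher and 12.2% lower. In wild-type osteoclasts 5 of 23 hydrolases and no membrane protein were lower by 2-fold, against 7.32% of all measured genes. These class counts use the brightest probe. On its other probe Lamp2 was lower by 2-fold in wild-type osteoclasts too, at -1.11, and Lamp1 was in LysM-St18flox osteoclasts, at -1.29. These shares were not tested against each other.

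Between genotypes, the median LysM-St18flox minus wild-type difference in osteoclasts was 0.17 over the hydrolases and -0.10 over the membrane proteins, 0.27 apart, with the membrane median at 0.15 with centring on the median. In macrophages it was 0.19 over the hydrolases and 0.05 over the membrane proteins, 0.14 apart. The distance between the class medians does not depend on the scaling factor of an array. Within the hydrolases, the lipid and acyl enzymes had the lowest median osteoclast minus macrophage difference, -1.33 in LysM-St18flox cells and -0.57 in wild-type cells, and the 3 sulfatases had the highest, 0.09 and 0.24.

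The responses of the 2 genotypes were next set side by side. Of the 36 genes, 23 were lower in osteoclasts of both genotypes and 6 were higher in both. The other 7, Gla, Glb1, Gusb, Idua, Arsa, Ids and Npc2, had opposite signs, and all 7 were within 2-fold in both genotypes. These sign counts depend on the scaling, since 20 genes were lower in both, 7 higher in both and 9 opposite with centring on the median, and 29, 5 and 2 with quantile normalization. The share with 1 sign was 80.6%, against 79.5% of the 13671 genes measured on all arrays. The response was larger in size in LysM-St18flox cells for 23 of the 36 genes (63.9%), against 72.1% of all genes. All 11 genes past 2-fold in either genotype had the larger response in LysM-St18flox cells, against 87.0% of the 3146 such genes measured on all arrays. For 6 of the 11 (Arsb, Lipa, Smpd1, Lamp2, Scarb2 and Psap) the choice fixed this, as on the brightest probe they passed 2-fold in LysM-St18flox cells only. On its second probe Lamp2 passed it in both genotypes, as given above. The 87.0% likewise includes genes that passed 2-fold in LysM-St18flox cells only. The other 5, among them Pla2g15, passed it in both genotypes.

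Probe choice could be examined in 11 of the 36 genes, which had 26 probes between them. All probes of a gene gave 1 sign for 10 of the 11 genes in the osteoclast and macrophage comparison of each genotype, with Tfeb the exception in both. For LysM-St18flox against wild-type cells, the probes gave 1 sign for 8 of the 11 genes in osteoclasts and for 3 of 11 in macrophages. Gaa had the widest spread in macrophages, with 0.31 on the brighter probe and -1.19 on the other. In osteoclasts Gaa had 0.37 and -1.01 on these probes, and Tfe3 had the widest spread, with -0.17 on its brighter probe and -2.41 on the dim one. The dim Tfe3 probe was not well above background in LysM-St18flox osteoclasts, so its value is not a measured difference. The sign of the genotype difference in macrophages therefore depended on the probe for 8 of the 11 genes. The other 25 genes had 1 probe each.

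**Figure D4:**
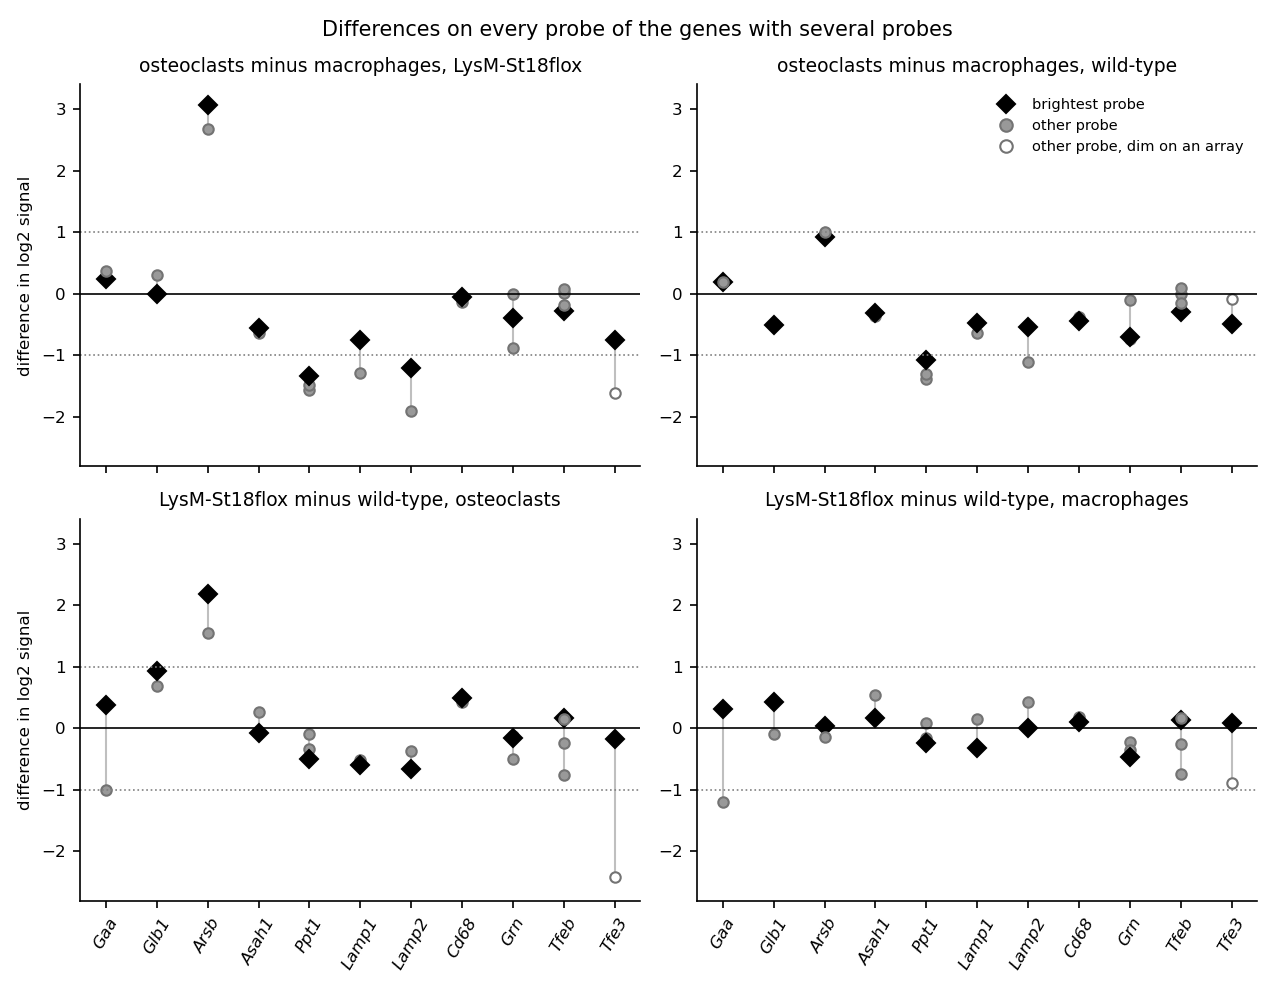
Difference in log2 signal (y axis) on every probe of the 11 lysosomal genes with several probes (x axis), in the 4 comparisons, with the brightest probe as a black diamond, other probes as grey circles, and open circles for a probe not above background on an array. The Arsb probes lie at 3.07 and 2.68 for osteoclasts minus macrophages in LysM-St18flox cells, and the Gaa probes lie at 0.31 and -1.19 for LysM-St18flox minus wild-type in macrophages.

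The 8 genes with CACGTG in the printed stretches were set against the 26 without it. Of the 8, Lgmn changed in at least 1 comparison, and the other 7 lay between -0.76 and 0.93 in all of them. However, Lamp1 and Glb1 passed 2-fold under other settings, and Gaa between genotypes on its other probe, as given above. Of the 26 without CACGTG, 10 changed in at least 1 comparison, and the share over all genes measured on all arrays was 26.4%. The 26 include Grn, Ppt1, Scarb2 and Tpp1, which have the variant TCATGTG, and of these Ppt1 and Scarb2 changed. The difference between these sets was not tested. The median osteoclast minus macrophage difference was -0.03 in LysM-St18flox cells and -0.29 in wild-type cells over the 8 genes, and -0.25 and -0.42 over the 26.

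Other genes of the pathway were taken as 5 further lists, and their values here are differences on the log2 scale. For comparison, 10.9% of all measured genes were higher and 12.2% lower by 2-fold in LysM-St18flox osteoclasts than in macrophages. In wild-type cells these shares were 5.70% and 7.32%. Between genotypes they were 3.80% and 3.94% in osteoclasts and 3.30% and 2.98% in macrophages. The counts of the lists were not tested against these shares. Of 26 measured other lysosomal hydrolases and cofactors, 5 were higher and 2 were lower by 2-fold in LysM-St18flox osteoclasts than in macrophages, and 1 was higher and 1 lower in wild-type osteoclasts. Their median difference was -0.31 in both genotypes. Acp5, the tartrate-resistant acid phosphatase that marks osteoclasts, was higher by 6.07 in LysM-St18flox cells and 5.93 in wild-type cells. Hyal1, which degrades hyaluronan, had differences of 1.89 in LysM-St18flox cells and of 0.80 in wild-type cells, where it did not reach 2-fold. Hyal3 differed by 2.16 in LysM-St18flox cells at a low level. Lyz2, lysozyme M, fell by 1.87 in LysM-St18flox osteoclasts, while in wild-type cells its difference was -0.89. Hgsnat, the acetyltransferase of heparan sulfate breakdown, had differences of -0.51 in LysM-St18flox and -1.45 in wild-type cells. In osteoclasts, Hyal3, Hyal1 and Hgsnat were higher in LysM-St18flox than wild-type cells, by 1.88, 1.54 and 1.12, and Lyz2 was lower, at -1.05. By the naming convention above, Cre is driven from the Lyz2 locus, so an effect of that allele on Lyz2 cannot be told apart. In macrophages Plbd1, a phospholipase B-like protein, was higher in LysM-St18flox cells by 1.37, and no other gene of the list changed.

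Of 32 measured other membrane proteins, 3 were higher and 6 were lower by 2-fold in LysM-St18flox osteoclasts, and none was higher and 4 were lower in wild-type osteoclasts. Their median difference was -0.39 in LysM-St18flox and -0.24 in wild-type cells. Clcn7, the chloride and proton exchanger of the lysosome and of the resorbing membrane, had a difference of 1.40 in LysM-St18flox and 0.89 in wild-type cells, and is named although it is not among the 4 largest changes of its list, a choice made after its values were seen. Slc15a3, a peptide and histidine transporter, was lower in both, at -2.19 and -1.86. Slc36a1, an amino acid and proton symporter, was also lower in both, at -2.01 and -1.25. Slc11a1, the divalent metal transporter of macrophage phagosomes, had -1.88 and -1.15, and it was the 1 gene of this list that changed between genotypes in osteoclasts, at -1.04. Mcoln2, a relative of Mcoln1, was lower in LysM-St18flox osteoclasts at -1.90, against -0.27 in wild-type cells.

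The sorting machinery for mannose 6-phosphate had 9 measured genes. Igf2r, the large mannose 6-phosphate receptor, was higher in osteoclasts, by 1.47 in LysM-St18flox cells and 1.04 in wild-type cells. Gnptab, a subunit of the enzyme that makes the tag, was higher by 2.03 in LysM-St18flox cells and differed by 0.59 in wild-type cells. Sort1, sortilin, a receptor that carries hydrolases without the tag, was lower in osteoclasts, at -3.48 in LysM-St18flox cells and -2.15 in wild-type cells. The other 6 genes stayed within 2-fold between cell types, and the median of the 9 was 0.19 in LysM-St18flox and 0.08 in wild-type cells. In osteoclasts Sort1 was lower in LysM-St18flox than wild-type cells, at -1.36, and Gga1, an adaptor of this transport, was higher by 1.21.

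Of 20 measured relatives and regulators of TFEB, 2 changed between cell types in LysM-St18flox mice and none in wild-type mice. Flcn and its partner Fnip2, which act on the Rag GTPases that hold TFEB in the cytoplasm, were lower in LysM-St18flox osteoclasts, at -1.30 and -1.27. In wild-type cells their differences were -0.26 and -0.81. The median of the 20 genes was -0.08 in LysM-St18flox and -0.16 in wild-type cells. Rragd, one of those GTPases, was higher in macrophages of LysM-St18flox than of wild-type mice by 1.18, the only change of the list between genotypes. Of 25 autophagy genes, 1 was higher and 5 were lower in LysM-St18flox osteoclasts, with Tecpr1 lowest at -2.15, and none was higher and 2 were lower in wild-type osteoclasts, with Wipi1 at -1.51 and Tecpr1 at -1.08. Map1lc3a, a protein of the autophagosome membrane, was higher in LysM-St18flox osteoclasts, by 1.15 against LysM-St18flox macrophages and by 1.39 against wild-type osteoclasts. The median of the 25 genes was -0.11 in LysM-St18flox and -0.01 in wild-type cells.

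**Figure D5:**
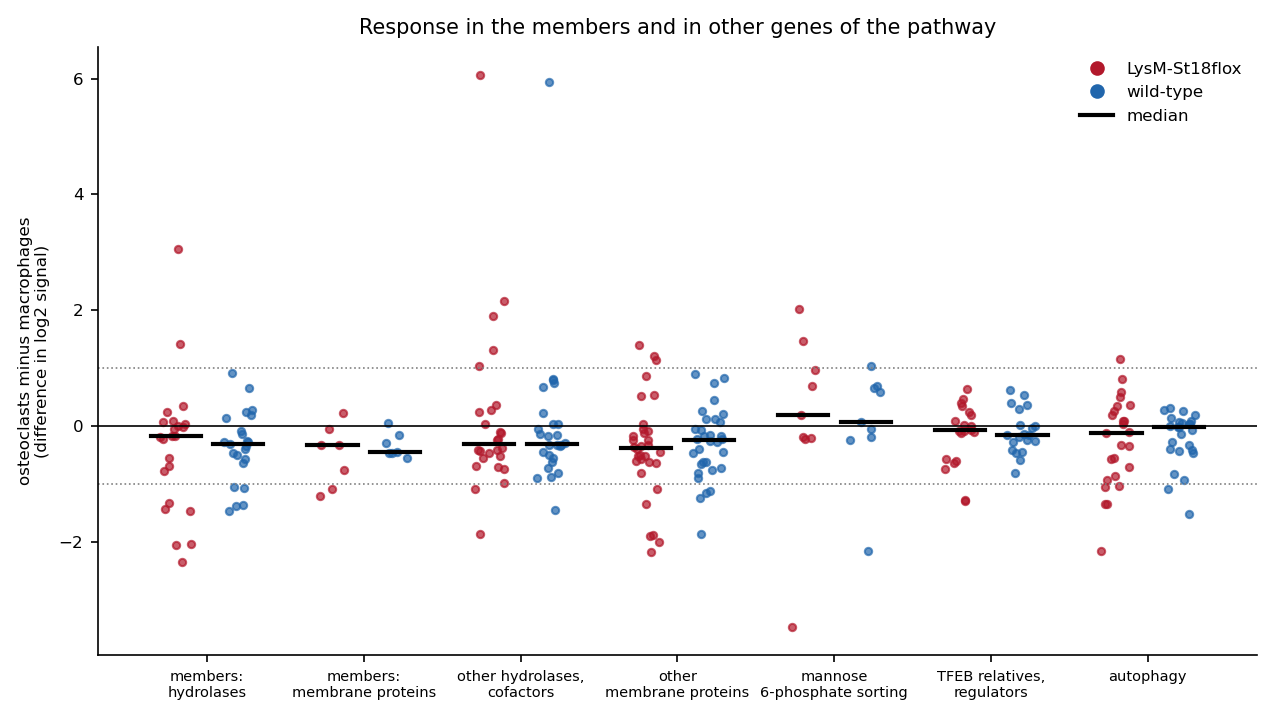
Osteoclast minus macrophage difference in log2 signal (y axis) of each measured gene in the hydrolases and membrane proteins described above and in 5 further lists of the pathway (x axis), red for LysM-St18flox and blue for wild-type cells, with black bars at the median and dotted lines at 2-fold. Acp5 stands at 6.07 and 5.93, and Sort1 at -3.48 and -2.15, in LysM-St18flox and wild-type cells.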

How the data were processed

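Total RNA from 1 culture per group was labelled with Cy3 and hybridised to 1 array each, and per the submitters' processing notes the images were quantified in Agilent Feature Extraction, version 11.0.1.1. The deposited processed intensity of each spot is background-subtracted and detrended within the array, per the file headers. Median spot and background intensities and flags of other kinds (0 or 1) are in the same deposited files. A second deposited table holds log2 values of the authors, quantile-normalized as far as the values show; no source used here says how it was made.

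Processed intensities were set to log2, averaged over the spots of a probe without outlying spots, and reduced by the array's 75th percentile over probes. Probes were named by RefSeq accession through a table of assembly GRCm38.p6, and coordinates come only from its promoters, since the file headers name another build. A gene took its brightest probe and entered a comparison if well above background on at least 1 of its 2 arrays. No test was run. All 36 genes may be named, those past 2-fold and Tfeb and Tfe3 with every array's value, and of other lists at most 4 genes past 2-fold per comparison. The genes and lists were chosen with earlier results of these data known. The normexp alternative used median spot intensities, as the files analysed hold no mean intensity. The calculation was tested on simulated data. Python 3.11.15, pandas 2.3.3, numpy 2.4.6, matplotlib 3.10.9, R 4.3.3 and limma 3.58.1 were used.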

Additional observations from a re-analysis of the deposited data

Results flagged for a closer look

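In 4 genes the difference had opposite signs in 2 groups by more than the precision of the spots, and these differences between groups were not tested. Idua, the iduronidase, had an osteoclast minus macrophage difference of -0.17 in LysM-St18flox cells and 0.28 in wild-type cells. Lgmn had a LysM-St18flox minus wild-type difference of -0.21 in osteoclasts and 0.46 in macrophages. The same difference was -0.46 in osteoclasts and 0.15 in macrophages for Scarb2, and -0.11 in osteoclasts and 0.37 in macrophages for Psap. All are under 2-fold, and under centring of every array on its median the value of Idua in LysM-St18flox cells and those of Lgmn and Psap in osteoclasts turn sign.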

How the results depend on the processing

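The 19 changes reported were recomputed under 5 alternatives that could move them, and of these 95 values 91 stayed past 2-fold and none reversed. Among the 95, 14 could not move either, as the median over probes leaves genes with 1 probe as they are. Quantile normalization and the authors' deposited table gave nearly the same values, so these 2 alternatives are not separate checks. Arsb between genotypes in osteoclasts, for example, was 2.15 and 2.16 under them. The filters on dim probes could not move any, since all 36 genes were above background on every array. Those under 2-fold were Scarb2 (-0.92) and Psap (-0.90) between cell types of LysM-St18flox mice with each array centred on its median, and Smpd1 between genotypes in osteoclasts (0.97) with quantile normalization and in the authors' deposited table. Between cell types of LysM-St18flox mice the 11 genes became 9 with median centring, and 13 with quantile normalization or the authors' deposited table (Fuca1 and Lamp1 added) and with the median over probes (Lamp1 and Tfe3 added). LysM-St18flox and wild-type macrophages differed in none of the 36 genes, but in 1 gene with median centring, quantile normalization or the authors' deposited table (Galc) and with normexp correction (Pla2g15), and in 3 at 1.5-fold. In osteoclasts the genotype count of 3 became 5 with median centring (Glb1 and Gm2a added), 4 with the median over probes (Tfe3 added) and 10 at 1.5-fold, and the wild-type count of 5 between cell types became 10 at 1.5-fold. Tfe3 was added in both counts through its dim probe, which was not well above background in LysM-St18flox osteoclasts. With quantile normalization, the genotype changes in osteoclasts were 1 higher and 1 lower, against 2 higher and 1 lower. The Pla2g15 responses of the 2 genotypes differed by more than 2-fold with quantile normalization, in the authors' deposited table and with normexp correction. With the last they were -2.30 in LysM-St18flox and -1.19 in wild-type cells. Hydrolase minus membrane medians of the genotype difference were 0.14 in macrophages, 0.21 with normexp and 0.041 with the median over probes, and 0.27 in osteoclasts, 0.22 with quantile normalization, 0.21 with the median over probes and 0.21 in the authors' deposited table. In wild-type cells the osteoclast minus macrophage value of 0.14 became 0.074 with the median over probes. The cause of these shifts was not tested. Median centring moved the median of all genes by 0.17 between LysM-St18flox cell types and by 0.24 between genotypes in osteoclasts, so smaller values in these comparisons carry no direction. No paired analysis was possible because each group had 1 array and the labels carry no replicate numbers. With 4 arrays, the number of arrays limits the precision.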

Other observations

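Of the genes that adjoin Arsb in the RefSeq gene order, those that could be measured, Lhfpl2 and Scamp1, had no rise beside it. Bhmt2 and Dmgdh, on one side, were not well above background on any of the 4 arrays, so no difference was measured for them. Lhfpl2, next on the other side, had levels of 1.82 in LysM-St18flox osteoclasts and 3.01 in wild-type osteoclasts. It was lower by 2-fold in LysM-St18flox osteoclasts, at -1.19 against wild-type osteoclasts and at -1.58 against LysM-St18flox macrophages. Scamp1, after it, had LysM-St18flox minus wild-type differences of -0.18 in osteoclasts and 0.02 in macrophages, within 2-fold. Each value rests on 1 array per group and no test was made.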
